A study of Mus musculus with 2 samples.

Results

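The Schlafen genes are a mouse gene family on chromosome 11, named for the growth arrest seen when the first of them was forced on in thymocytes. Of its protein-coding genes, Slfn1, Slfn2, Slfn3, Slfn4, Slfn5, Slfn8 and Slfn9 were chosen by gene symbol and are called the members here. They make up 7 of the 55536 mouse genes listed. A further protein-coding Schlafen gene on that chromosome, Slfn14, was not among those chosen. RNA was taken from nuclei of bone marrow-derived macrophages of C57BL/6J mice, which are primary cells grown from marrow and not a cell line. A first exposure to Lipid A (100 ng/ml) lasted 12 h, a washout of 12 h followed, and a second exposure (100 ng/ml) lasted 120 min before the nuclei were collected. There was 1 group of 2 biological replicates, made from 1 µg of RNA (replicate 1) and 500 ng of RNA (replicate 2), and the labels give both the same strain donor, so whether separate animals were used is not known. No untreated, single-dose or cytoplasmic library was analysed here, so no value below is a response to Lipid A or an enrichment in the nucleus. The labels call the fraction nuclear in one field and nucleoplasmic in another.

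Lipid A is the membrane-anchored part of bacterial lipopolysaccharide and acts through Toll-like receptor 4. That receptor turns on NF-kappa B and, through a second adaptor, the release of interferon beta, which binds the interferon receptor and activates transcription factors. These bind interferon-response elements in promoters, and Schlafen genes are among those known to be induced by type I interferon and by lipopolysaccharide in macrophages. All Schlafen proteins share an N-terminal core, which in several members binds or cuts tRNA. They fall into a short class (Slfn1, Slfn2) with little more than this core, an intermediate class (Slfn3, Slfn4) and a long class (Slfn5, Slfn8, Slfn9) that adds a helicase-like C-terminal part.

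The annotated coding regions follow these classes. The reading frame of Slfn1 held 337 codons and that of Slfn2 378. The longest reading frame of Slfn3 held 640 codons and that of Slfn4 602. Slfn5 had 884 codons, and Slfn8 and Slfn9 had 910 each. Of the 21 possible pairs, the closest relatives were Slfn8 with Slfn9, whose coding regions were identical at 92.7% of aligned bases, and Slfn3 with Slfn4, also identical at 92.7%. Slfn1 and Slfn2 were identical at only 71.9% of aligned bases. The following stretches are the longest runs of coding sequence (GENCODE M21 transcripts, sense strand) that each of the 2 close pairs has in common, and a read lying within them cannot be given to either gene on sequence alone. The Slfn8 and Slfn9 run has 139 bases and the Slfn3 and Slfn4 run has 95. Shared runs were not limited to these pairs, since Slfn2 and Slfn4, identical at 75.9% of aligned bases, had a run of 101 bases in common.
Slfn8 and Slfn9: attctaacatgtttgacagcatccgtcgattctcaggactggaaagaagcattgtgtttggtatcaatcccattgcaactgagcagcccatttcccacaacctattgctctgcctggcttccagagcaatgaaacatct
Slfn3 and Slfn4: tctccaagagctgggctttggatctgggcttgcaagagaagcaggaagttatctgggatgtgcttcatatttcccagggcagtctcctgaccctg

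A window from 250 bases before to 50 bases after the start of each gene (RefSeq, build GRCm38.p6) was found for 7 of 7 members, in 8 windows, because Slfn8 has 2 starts. These windows were searched on both strands for the interferon-response core GAAANNGAA, where N is any base. The core was present in Slfn5, Slfn8 and Slfn9, which are 3 of 7 members and all long-class members, and in 8.56% of all 32851 promoter windows. The window of Slfn14, a long-class gene outside the cluster that was not detected, also held a match, GAAAGTGAA. No match was found within the windows of Slfn1, Slfn2, Slfn3 and Slfn4. No member window held the interferon-gamma-activated motif TTCNNNGAA (in 8.30% of all windows) or the kappa B core GGANNTTCC (in 4.26%). The bases before the start are printed for the 3 promoters with the interferon-response core, in the direction of transcription, with the matches in capitals. They are chr11:82951852-82952101 on the plus strand for Slfn5, chr11:83020811-83021060 on the minus strand for the first Slfn8 window, and chr11:82991831-82992080 on the minus strand for Slfn9.
Slfn5: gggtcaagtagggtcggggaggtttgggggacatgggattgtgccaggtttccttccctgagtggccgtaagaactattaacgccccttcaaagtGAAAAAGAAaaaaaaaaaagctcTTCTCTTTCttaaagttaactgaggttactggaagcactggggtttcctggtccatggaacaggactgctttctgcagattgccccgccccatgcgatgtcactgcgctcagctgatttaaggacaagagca
Slfn8: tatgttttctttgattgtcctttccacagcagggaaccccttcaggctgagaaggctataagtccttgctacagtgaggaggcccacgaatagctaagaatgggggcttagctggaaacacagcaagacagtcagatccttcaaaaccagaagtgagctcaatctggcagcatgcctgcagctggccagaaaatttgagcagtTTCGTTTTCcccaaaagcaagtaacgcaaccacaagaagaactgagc
Slfn9: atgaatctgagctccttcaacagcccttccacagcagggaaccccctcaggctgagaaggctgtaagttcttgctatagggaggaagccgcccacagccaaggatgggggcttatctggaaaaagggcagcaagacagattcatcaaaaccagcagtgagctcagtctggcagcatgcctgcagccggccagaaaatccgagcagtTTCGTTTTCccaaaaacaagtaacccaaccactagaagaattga

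The Slfn5 promoter held 2 matches, beginning 155 and 132 bases before the RefSeq start. GENCODE M21 places the start of the Slfn5 gene at 82951349, before the printed window, so the 2 annotations differ on this start. The Slfn8 and Slfn9 promoters each held the same 9 letters, TTCGTTTTC, which read GAAAACGAA on the other strand. These began 47 bases before the start in the first Slfn8 window and 44 bases before it in Slfn9. In the second Slfn8 window the same match began 135 bases before the start. The whole windows of Slfn8 and Slfn9 were identical at 84.9% of aligned bases, against 52.6% to 63.5% for the other 20 pairs of member windows. A match describes the letters only, and binding of any factor was not measured.

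All 7 members were detected, meaning that each reached 1 TPM (a transcript level: read counts divided by transcript length and scaled to a fixed sum per library) in both libraries. Among 22028 protein-coding genes this held for 39.6%. All 7 members also reached 10 TPM in both libraries, against 14.3% of protein-coding genes. Slfn14, the protein-coding Schlafen gene that is not a member, stood at 0.01 TPM in both libraries. The 7 members summed to 791 TPM in replicate 1 and 829 TPM in replicate 2 (810 ± 27.0, SD, n = 2). They held 0.400% of all gene counts in replicate 1 and 0.290% in replicate 2. Their levels fell into an upper set of Slfn2, Slfn4, Slfn8 and Slfn5, all above 100 TPM in both libraries, and a lower set of Slfn1, Slfn3 and Slfn9, all below 32 TPM.

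Within the short class, Slfn2 was the most abundant member in both libraries. Slfn2 protects tRNA from cleavage and is best known for keeping T cells and monocytes in a resting state. It stood at 275 TPM in replicate 1 and 313 TPM in replicate 2 (294 ± 26.4, SD, n = 2), which ranked it 73rd and 71st among protein-coding genes. Slfn1, the founding member, whose forced expression stops thymocyte growth, stood at 31.6 TPM in replicate 1 and 29.3 TPM in replicate 2 (30.4 ± 1.57, SD, n = 2). The level of Slfn2 was 8.72 times that of Slfn1 in replicate 1 and 10.7 times in replicate 2. The 2 genes of this class were therefore apart in both libraries by far more than the spread of either.

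Within the intermediate class, Slfn4 was the high member. Slfn4 is a myeloid Schlafen that is induced in macrophages by interferon and Toll-like receptor ligands. It stood at 193 TPM in replicate 1 and 168 TPM in replicate 2 (180 ± 17.3, SD, n = 2). Slfn3, studied mainly in T cells and in the differentiation of intestinal epithelium, stood at 15.8 TPM in replicate 1 and 15.0 TPM in replicate 2 (15.4 ± 0.559, SD, n = 2). The level of Slfn4 was 12.2 and 11.2 times that of Slfn3, although their coding regions are among the most alike of the family.

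Within the long class, Slfn8 and Slfn5 were high and Slfn9 was low. Slfn8 stood at 137 TPM in replicate 1 and 151 TPM in replicate 2 (144 ± 10.5, SD, n = 2). Slfn5, a nuclear Schlafen whose human counterpart acts as a transcriptional repressor of interferon-stimulated genes, stood at 122 TPM in replicate 1 and 138 TPM in replicate 2 (130 ± 11.2, SD, n = 2). Slfn9 stood at 16.6 TPM in replicate 1 and 14.1 TPM in replicate 2 (15.4 ± 1.75, SD, n = 2). The level of Slfn8 was 8.22 and 10.7 times that of Slfn9, the gene whose promoter window and coding region it most resembles. Slfn5 was 7.37 and 9.78 times as high as Slfn9. Among the 7 members, each of the 3 classes therefore held at least 1 high and exactly 1 low gene. Slfn14, a long-class gene that is not a member, was not detected.

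**Figure D1:**
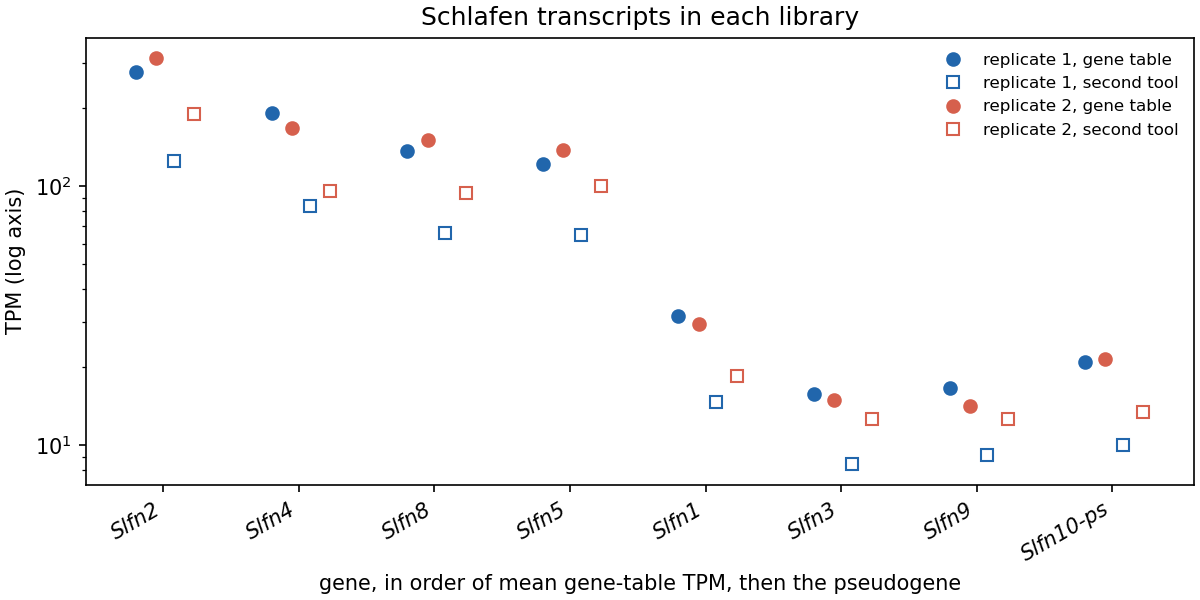
Level of each Schlafen gene in TPM (vertical log axis) in the 2 libraries, from the gene table (filled circles) and from the second deposited quantification (open squares); the pseudogene Slfn10-ps is at the right. In every series of points Slfn2, Slfn4, Slfn8 and Slfn5 lie above Slfn1, Slfn3, Slfn9 and Slfn10-ps, and all 8 genes are higher in replicate 2 by the second quantification.

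In order of mean TPM the members ran Slfn2, Slfn4, Slfn8, Slfn5, Slfn1, Slfn3 and Slfn9. The ranges of Slfn8 and Slfn5 over the libraries overlapped, as did those of Slfn3 and Slfn9. Within a library, Slfn8 was 1.12 times as high as Slfn5 in replicate 1 and 1.10 times in replicate 2, while the second quantification put Slfn5 at 0.979 and 1.06 times Slfn8. Slfn3 stood at 0.950 and 1.06 times Slfn9, so their order differed between the libraries. Slfn4 lay above Slfn8 by 1.41 times in replicate 1 and by 1.11 times in replicate 2. The step between the upper and lower sets was larger, since Slfn5 was 3.88 and 4.71 times as high as Slfn1. Slfn1 in turn was 2.00 and 1.96 times as high as Slfn3. The second quantification placed Slfn5 above Slfn4 and Slfn8 in replicate 2, with 101 TPM for Slfn5, 96.2 TPM for Slfn4 and 94.6 TPM for Slfn8, so the order within the upper set below Slfn2 depended on the quantification. With 2 libraries no exact permutation test of a difference in level can reach a threshold of 0.05, and none was made.

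The short class held 38.8% of the summed member TPM in replicate 1 and 41.3% in replicate 2 (40.0% ± 1.74, SD, n = 2). The intermediate class held 26.4% and 22.1% (24.2% ± 3.01, SD, n = 2), and the long class 34.8% and 36.6% (35.7% ± 1.27, SD, n = 2). The short and long classes thus held similar shares of transcripts, each above the intermediate class in both libraries. As shares of reads, which grow with transcript length, the order differed, with 20.3% short, 29.5% intermediate and 50.2% long. Slfn2 alone made up 36.3% ± 2.05 of the summed TPM (SD, n = 2).

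The lists of other genes below were drawn up with earlier results of these data known, and are used for description only. In the pathway that leads from the interferon receptor to Schlafen genes, 18 of 20 listed receptors, kinases, signal carriers and ligands were detected. Among the highest were the transcription factors Irf7, at 279 TPM in replicate 1 and 179 TPM in replicate 2, and Irf1, at 146 and 131 TPM. The interferon genes Ifna2 and Ifna4 had no count in either library. Interferon beta itself (Ifnb1), named here after its values were seen, was detected at 15.8 TPM in replicate 1 and 4.38 TPM in replicate 2. The median level of the list was 40.3 TPM in replicate 1 and 43.5 TPM in replicate 2. All 36 of 36 listed interferon-stimulated genes were detected, led by Rsad2, an antiviral enzyme, at 1025 and 871 TPM, Cxcl10, a chemokine, at 585 and 480 TPM, and Oasl2, an antiviral oligoadenylate synthetase-like protein, at 394 and 622 TPM.

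The median of the interferon-stimulated genes was 96.5 TPM in replicate 1 and 106 TPM in replicate 2, and that of the 7 members was 122 TPM and 138 TPM. The median of all protein-coding genes was 0.18 TPM and 0.29 TPM. Slfn2 was exceeded by 6 of the 36 interferon-stimulated genes in both libraries. Slfn4 was exceeded by 10 of them in replicate 1 and 12 in replicate 2, and Slfn5 by 14 and 15. Slfn3 and Slfn9 lay below all 36 in both libraries. The upper set of Schlafen genes thus lay among the more abundant interferon-stimulated genes of the list and the lower set at or below its lower end.

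A list of 15 annotated genes that act on tRNA or sense ribosome stress, the processes in which Schlafen proteins take part, had a much lower median. Of these, 13 were detected, and the median of all 15 was 4.21 TPM in replicate 1 and 5.04 TPM in replicate 2. The highest were Eif2ak2, an interferon-induced kinase that stops translation, at 41.9 and 65.3 TPM, Atf4, a stress transcription factor, at 43.5 and 45.9 TPM, and Rnh1, the inhibitor of tRNA-cutting ribonucleases such as angiogenin, at 22.0 and 19.2 TPM. The tRNA methyltransferase Trdmt1 (0.89 and 1.16 TPM) missed 1 TPM in replicate 1. Slfn2, Slfn4, Slfn8 and Slfn5 were higher than every gene of this list in both libraries. In both, Slfn1 lay below Eif2ak2 and Atf4, and Slfn3 and Slfn9 lay below Eif2ak2, Atf4 and Rnh1. Eif2ak2 is also on the list of interferon-stimulated genes, so these 2 lists are not separate.

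**Figure D2:**
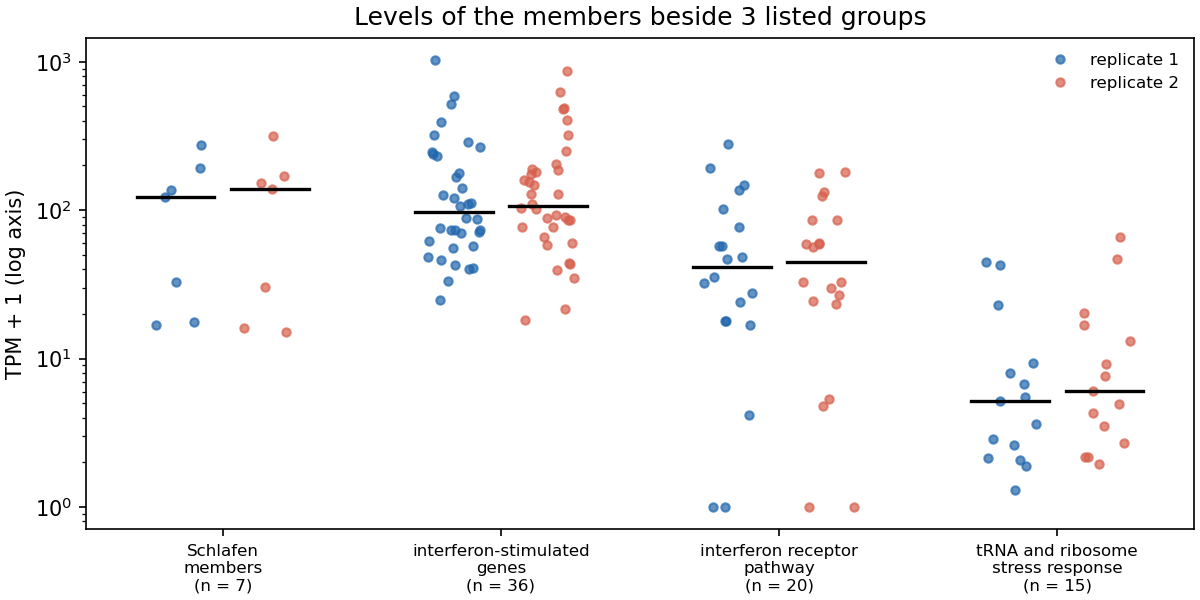
TPM + 1 (vertical log axis) of each gene in each library for the 7 Schlafen members and 3 gene lists; black bars are medians of each library. The member median (122 and 138 TPM) lies near that of the interferon-stimulated genes (96.5 and 106 TPM) and above that of the tRNA and ribosome stress genes (4.21 and 5.04 TPM).

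The cells carried the markers of their label. All 10 macrophage markers were detected, among them Lyz2 (lysozyme) at 1300 and 1229 TPM and Adgre1 (F4/80) at 537 and 749 TPM. Of 37 markers of T, B, natural killer, neutrophil, dendritic, fibroblast and erythroid cells, 35 were below 1 TPM in both libraries. The exceptions were Cd4, at 13.9 and 13.4 TPM, with Cd3e and Cd3g at 0 in both libraries, and the erythroid gene Alas2, at 0.84 and 1.77 TPM. The summed level of the 6 neutrophil markers was 0.62 and 0.36 TPM. In bulk RNA the number of cells that express a gene and the amount of its RNA in each cell cannot be told apart.

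The 7 members lay together on chromosome 11 between positions 82951349 and 83215154 (mm10), a span of 264 kb. The span held 22 annotated genes, of which the 7 members were the only protein-coding ones, and 10 of the 22 were detected. Slfn5 (82951349 to 82964840) opened the cluster on the plus strand. Slfn9 (82978390 to 82991830) and Slfn8 (83002158 to 83020810) followed on the minus strand. Slfn2 (83065112 to 83070678), Slfn1 (83116849 to 83122670), Slfn4 (83175186 to 83190216) and Slfn3 (83191330 to 83215154) were all on the plus strand. High and low members were interspersed along the cluster, with low Slfn9 between Slfn5 and Slfn8, low Slfn1 between Slfn2 and Slfn4, and the high members Slfn8 and Slfn2 next to each other. Slfn4 and Slfn3 lay next to each other with an 11.7-fold mean difference in level.

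Beyond the members, 4 other annotated genes have a symbol that begins with Slfn. The pseudogene Slfn10-ps, between Slfn8 and Slfn2, stood at 21.03 TPM in replicate 1 and 21.48 TPM in replicate 2, above Slfn3 and Slfn9 in both, with sequence shared between it and Slfn9. Slfn5os, an antisense gene whose exons overlap those of Slfn5, stood at 0.86 and 0.77 TPM. Slfn14, a long-class gene known for its part in platelet and red cell formation, lies beyond the right end of the cluster (83275110 to 83286726) and had 2 counts in replicate 1 and 1 count in replicate 2 (0.01 TPM in both). The Schlafen-like gene Slfnl1, on chromosome 4, had 1 count in replicate 1 and 0 in replicate 2. A count of 0 allows up to 3 counts. The nearest detected protein-coding gene to the left, the ubiquitin ligase gene Rffl at a distance of 80.1 kb, was below all 7 members, at 8.48 and 9.08 TPM. The upper bound of the credibility interval deposited by the authors for Slfn14 was 0.0368 TPM in replicate 1 and 0.0617 TPM in replicate 2, far below the 1 TPM taken as detection.

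**Figure D3:**
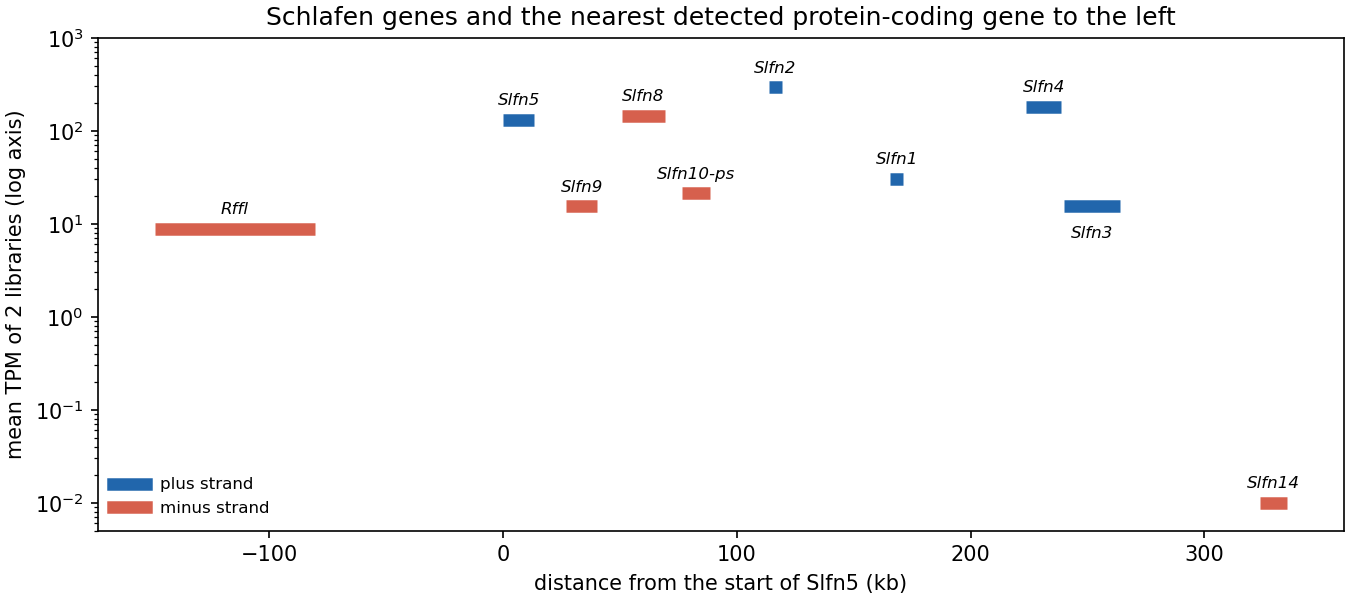
Mean TPM of the 2 libraries (vertical log axis) against distance from the start of Slfn5 in kb for the Schlafen genes and Rffl, the nearest detected protein-coding gene to the left; the length of each bar is the gene's span and its colour the strand. High and low members are interspersed along the cluster, and Slfn14, at 0.01 TPM, lies to the right of the cluster.

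The annotation holds 21 transcripts for the 7 members, 19 of them protein-coding and 0 classed as retained introns, so unspliced nuclear RNA has no transcript of its own in these tables and its part in the levels was not tested. Shares of each gene's TPM were taken from the gene table's companion transcript table. Slfn1 and Slfn2 have 1 transcript each, Slfn1-201 and Slfn2-201. Slfn4-201 held 69.7% of Slfn4 in replicate 1 and 81.6% in replicate 2, and the rest was nearly all Slfn4-202 (28.6% and 16.7%), which encodes the same 602 codons. Slfn9-201 held 75.6% and 84.7% of Slfn9, with Slfn9-203, which has 641 codons in place of 910, at 22.3% and 15.3%.

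Slfn3 was the member with a sizeable non-coding share. Slfn3-201, with 517 codons, held 55.8% of Slfn3 in replicate 1 and 58.3% in replicate 2. Slfn3-202, with the longest reading frame, held 34.5% and 20.7%. Slfn3-203, a processed transcript with no reading frame, held 9.75% and 21%, and 18.3% and 31.7% by the second quantification. The non-coding share was thus higher in replicate 2 by both quantifications.

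Slfn5 and Slfn8 were further members, beside Slfn3, whose transcript shares depended on the quantification. Slfn5-201 held 86.8% and 77.1% of Slfn5, against 63.9% and 64.8% by the second quantification. The second quantification gave more to Slfn5-202 (14.7% and 12.0%, against 1.01% and 1.93%), which encodes the same 884 codons with a shorter transcript. Slfn5-203, which encodes 378 codons, held 12.0% and 20.9%. Slfn8-201 held 45.0% and 40.5% of Slfn8, the lowest share of a top transcript among the members in this table. The second quantification gave Slfn8-201 56.8% and 54.3%, and there Slfn3-201 was lower, at 50.9% and 45.9%.

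Slfn8 was spread over 5 transcripts. Slfn8-206, with 407 codons, held 20.2% and 27.5% in the first table and was listed at 0 in both libraries by the second quantification. Slfn8-204, with 641 codons, held 13.8% and 12.5%, against 26.9% and 21.5% by the second quantification. Slfn8-203 held 9.39% and 12.4%, and Slfn8-202 held 11.7% and 7.04%. The 2 quantifications therefore differed on whether Slfn8-206 was present and on the shares of the other transcripts. Both listed the shortened Slfn8-203 and Slfn8-204, and both placed Slfn8-201 first.

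**Figure D4:**
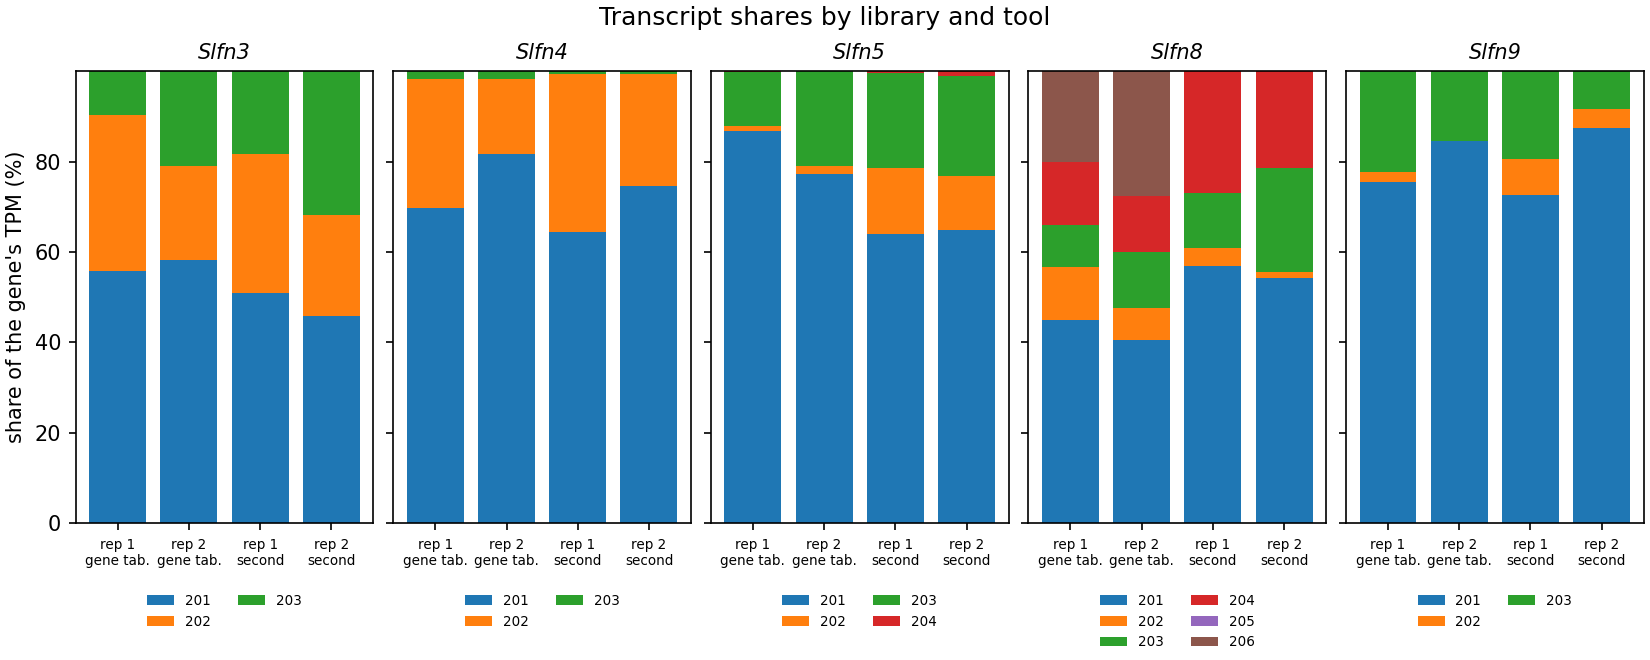
Share of each gene's TPM (vertical axis, %) held by each annotated transcript of the 5 members with several, in each library and by each quantification; the legend gives the transcript number that follows the gene symbol. Slfn8-206 is present in the first table (20.2% and 27.5%) and missing from the second, and the share of Slfn3-203 is higher in replicate 2 by both.

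How far reads could be told apart between genes was described with the 31-base words of each gene's transcripts. Words that occur in no transcript of another annotated gene were counted. The share of such words was 98.0% in Slfn1, 89.2% in Slfn2, 86.6% in Slfn5, 79.1% in Slfn4, 75.4% in Slfn9, 72.7% in Slfn8 and 69.1% in Slfn3. Slfn8 shared 19.1% of its words with Slfn9, and Slfn3 shared 15.1% with Slfn4. With annotated genes that are not Schlafen genes, Slfn3 shared 19.8% of its words and Slfn4 10.1%. Among these, Slfn3 and Slfn4 shared 367 and 348 words with Gm11427, a transcribed pseudogene at 6.37 and 4.78 TPM. Slfn9 shared its most words, 14.3%, with the pseudogene Slfn10-ps, of whose words 32.4% occurred in other Schlafen genes. Slfn5 shared 505 words with Slfn5os, and no source used here says whether strand was used in the counting. The credibility interval deposited by the authors for the TPM of Slfn3 ran from 14.7 to 16.4 in replicate 1 and from 13.1 to 15.5 in replicate 2, and that of Slfn9 from 15.7 to 16.99 and from 12.7 to 14.3. Slfn3 and Slfn9 each have a close relative at 8.22 to 12.2 times their level, and how shared reads were split bears on their own values. By the second quantification the ratio of Slfn4 to Slfn3 was 9.94 and 7.63, and that of Slfn8 to Slfn9 was 7.18 in replicate 1 and 7.50 in replicate 2. Both gaps were thus present but smaller there. How either quantification split shared reads is not given in the sources used here, and its part in the gaps was not tested.

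The 2 libraries were compared with each other gene by gene to show how far the members' levels repeat. An exact two-sided binomial test on expected counts, scaled by TMM (a factor that aligns the bulk of genes) and adjusted by the Benjamini-Hochberg method over 14698 genes, was used. It takes in no error other than that of counting, and it sets 1 library against the other rather than a treatment against a control. All 7 members were called lower in replicate 2, where 30.2% of all tested genes and 35.8% of tested protein-coding genes were called lower. Because 59.9% of all genes were called in either direction, a call alone says little, and the size of the ratio is the more useful value. Scaling by library size alone moved the split over all genes from 29.7% higher and 30.2% lower to 39.2% higher and 22.1% lower, and the 7 members were called lower under that scaling too. They were also called lower with DESeq2 size factors (30.6% of all genes lower), with no count filter (19.8%) and with the second quantification (30.9%).

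The members' log2 ratios of replicate 2 over replicate 1, relative to the median gene, ran from -0.46 to -0.84. Slfn4 had the lowest, at -0.84, from 34352 expected counts (replicate 1) and 12927 (replicate 2), with 10.2% of genes lower. Slfn9 stood at -0.80 (3839 and 1481 expected counts), Slfn1 at -0.75 (2535 and 1014) and Slfn3 at -0.64 (1349 and 580). Slfn5 stood at -0.61 (31029 and 13685) and Slfn8 at -0.53 (21256 and 9891). Slfn2 had the smallest difference, at -0.46 (19396 and 9493), with 23.8% of genes lower. The largest adjusted p among the members, by the exact binomial test, was 8.4e-19 for Slfn3, the member with the fewest counts. All 7 ratios lay within 2-fold of the median gene, as did those of 82.6% of all tested genes. By the second quantification the members ran from -0.74 (Slfn3) to -1.24 (Slfn4), and Slfn4 and Slfn1 (-1.07) lay beyond 2-fold.

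On the deposited TPM scale the directions were mixed, and this came with a shift of all genes. Slfn2, Slfn5 and Slfn8 had higher TPM in replicate 2, by 0.18, 0.17 and 0.15 on the log2(TPM + 1) scale. Slfn1, Slfn3, Slfn4 and Slfn9 had lower TPM, at -0.10, -0.07, -0.19 and -0.22. The median of the tested genes was 0.43 on that scale, so relative to it all 7 members were again lower, from -0.25 for Slfn2 to -0.65 for Slfn9. Short structural and mitochondrial RNAs took 78.6% of all TPM in replicate 1 and 68.0% in replicate 2, which sets the scale of every other gene's TPM.

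The interferon and macrophage lists were mostly lower in replicate 2 as well, and the other lists were mixed. Over all tested genes 30.2% were called lower in replicate 2 and 29.7% higher. Of the 36 interferon-stimulated genes 30 were called lower in replicate 2 and 3 higher, with a median relative log2 ratio of -0.57, against -0.64 for the members. Among 18 tested genes of the interferon receptor pathway 17 were lower and 0 higher (median -0.68), and all 10 macrophage markers were lower (median -0.73). Of the 15 genes of the tRNA and ribosome stress list 6 were lower and 5 higher (median -0.11), and of 5 RNAs known to stay in the nucleus 2 were lower and 3 higher (median 0.11). Mitochondrial transcripts held 4.15% of gene counts in replicate 1 and 10.3% in replicate 2. The 735 genes with the most counts, among them Slfn2, Slfn4, Slfn5 and Slfn8, had a median of -0.33. Relative to genes in the same of 20 bins of mean count the members stood from -0.13 (Slfn2) to -0.61 (Slfn1). Relative to genes in the same of 20 bins of GC content they stood from -0.39 (Slfn2) to -1.08 (Slfn4). The part of RNA input, of the mitochondrial share and of the purity of the fraction in these ratios was not tested.

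**Figure D5:**
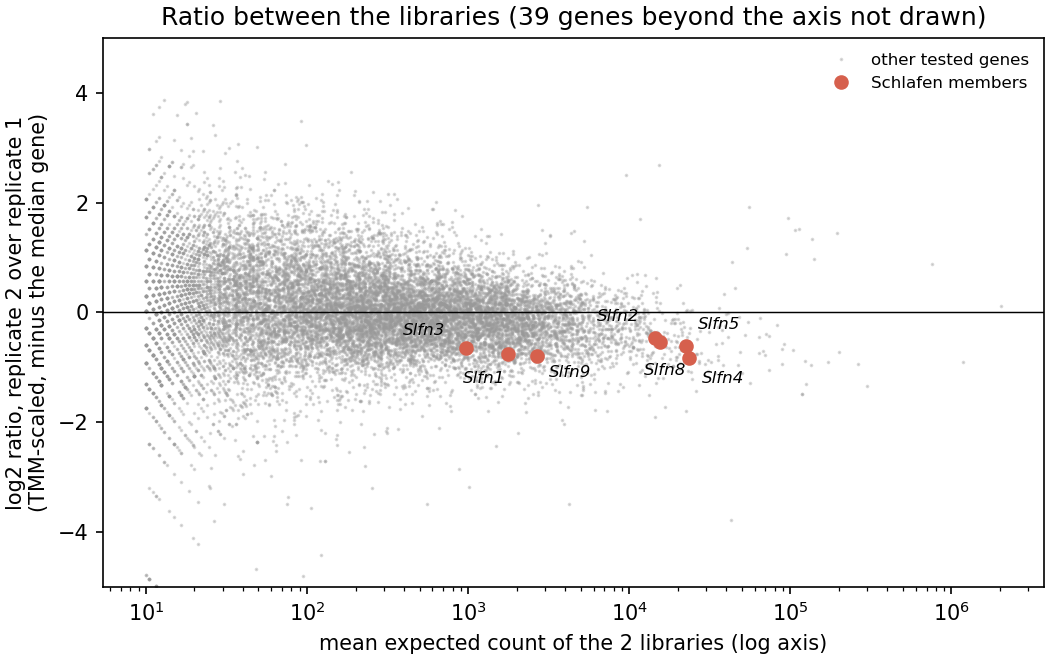
Log2 ratio of replicate 2 over replicate 1, TMM-scaled and relative to the median gene (vertical axis), against mean expected count (horizontal log axis). Other tested genes are grey and the Schlafen members red, and 39 genes beyond the vertical axis are not drawn. The 7 members lie below the median gene, from -0.46 for Slfn2 to -0.84 for Slfn4.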

How the data were processed

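The members and gene lists were chosen with earlier results of these data known, although the rule for members, the gene symbol, uses no measured value. Named genes were the members, other genes whose symbol begins with Slfn, the nearest detected protein-coding gene on each side, and from each list the 3 highest by mean TPM and those not detected; some of these genes are not reported here. Ribosomal-RNA-depleted total RNA was sequenced from 2 replicates of 1 group. The authors deposited, per the file headers, gene and transcript tables with expected counts, TPM, credibility bounds and transcript shares in percent, and a second transcript table with estimated counts and TPM, all on mm10 with GENCODE M21 annotation. Quantification tools, versions and the strand setting are not given in the sources used here. Gene counts came to 28450309 in replicate 1 and 16940220 in replicate 2. A phiX174 row, which is no mouse gene, held 1.79% and 0.318% of all counts and was left out.

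Expected counts were rounded, genes were kept from a mean count of 10 upward, and TMM factors came from edgeR 4.0.16. The exact two-sided binomial test (scipy 1.17.1) was tried on simulated counts that held counting error only. That trial does not show how the test behaves on libraries that differ in other ways. Replicates with no stated separate culture give a spread that may be technical. The alternatives were library size, DESeq2 1.42.0 size factors, no count filter, the second quantification, posterior mean TPM, TPM rescaled without short and mitochondrial RNAs, expected counts, and leaving out a replicate. Transcript and promoter matches used GENCODE M21 and RefSeq (GRCm38.p6). No protein sequences were used here.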

Additional observations from a re-analysis of the deposited data

How the results depend on the processing

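In counts, the 7 members were lower in replicate 2 under every scaling, filter and quantification tried, and 28 of 28 member log2 ratios kept their direction and call. Most of these were no separate checks. The count filter leaves a member's ratio as it is, and a change of scaling shifts all genes by the same amount. Only the second quantification used other counts, and there 30.9% of all tested genes were called lower. In TPM, all 7 members were higher in replicate 2 by the second quantification. Of 21 member TPM values from other quantities, the 7 posterior means stayed within 1 SD of the reported mean and the 14 from the second quantification and rescaling did not. The summed member TPM of 810 became 449 with the second quantification, 783 with posterior means and 3161 after rescaling without short and mitochondrial RNAs. Leaving out a replicate gave 791 to 829 on the deposited scale. The second quantification gave 372 in replicate 1 and 526 in replicate 2, and rescaling gave 3726 and 2596. The closeness of the 2 libraries in this sum therefore held on the deposited scale and not on those 2 scales. The second quantification moved the top-transcript share of Slfn3 to 48.4%, of Slfn5 to 64.4% and of Slfn8 to 55.6%, and the long-class share to 38.5%. Shares by expected counts were 20.3% short, 29.5% intermediate and 50.2% long. Without a count filter 39.9% of 22267 genes were called in either direction, against 59.9%. Leaving out a replicate leaves no library comparison, so it was not run for the ratios. No paired analysis was possible because there is only 1 group. Each member had over 500 counts in both libraries.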
